A study of Mus musculus with 2 samples.

Results

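The genes described here are the machinery by which synaptic vesicles dock, become primed and fuse at nerve terminals. They were taken by symbol, as every gene of the count matrix that belongs to the synaptotagmins, syntaxins, SNAP and VAMP proteins, SV2, Munc13 (Unc13), RIM, complexin, synapsin, syntaxin-binding and Doc2 families, which gave 72 of 32285 genes. The symbol rule itself used no expression value, but the members were chosen with earlier results of these data known. The nuclei came from hypothalamus labelled as arcuate nucleus (ARC), the region at the base of the brain whose AGRP and POMC neurons control hunger, of wild-type male C57BL/6J mice aged 10 to 12 weeks. Nuclei that stained for NeuN, which marks neurons, were sorted and sequenced as 1 droplet library with a second library of hashtag barcodes, which are antibody tags that mark from which pool a nucleus came. The 2 hashtags were named ARC and PVH. The labels give no separate tissue for the PVH hashtag, no treatment and no other genotype, and the animals behind each hashtag cannot be told apart, so there was 1 value per group, no replicate and no test. Every interval below covers counting error only.

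Release begins when a calcium sensor on the vesicle, a synaptotagmin, acts on the SNARE complex that the vesicle protein VAMP forms with syntaxin and SNAP-25 of the plasma membrane. Munc13 proteins help to build that complex, RIM proteins hold it at the active zone, complexins clamp and assist it, and synapsins and SV2 proteins act on the vesicle pool. Most of these proteins come from small families, and neurons differ in which paralog they use, which sets the speed and the calcium dependence of release. Neuroendocrine neurons of the hypothalamus use related proteins to release peptide from dense-core vesicles.

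The filter and demultiplexing settings of the study kept 6841 of 11409 barcodes here, 3767 with the ARC hashtag and 3074 with the PVH hashtag. These held 36225553 UMIs (unique molecular identifiers, each a counted RNA molecule). The study itself reported fewer nuclei and described dissected arcuate nucleus only. Median depth was 4827 UMIs in ARC-hashtag and 5039 UMIs in PVH-hashtag nuclei. The hashtags separated incompletely, since 777 of the ARC-called nuclei carried at least as many PVH as ARC tag counts and none of the PVH-called nuclei showed the reverse. Clustering without the 72 genes gave 21 neuron clusters and 2 non-neuronal clusters of 65 nuclei. Of the neuron clusters, 11 passed the marker rule for a class name (AGRP-, POMC-, KNDy-, GHRH-, VMH- and dopaminergic-like, and 5 Sim1 PVH-like clusters), and the other 10 stayed unnamed and are given by number. By their vesicular transporters 12 clusters were glutamatergic, 8 GABAergic and 1 mixed.

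The 72 genes together made up 0.796% of the UMIs of ARC-hashtag nuclei and 0.809% of those of PVH-hashtag nuclei. Levels are given as CPM, UMIs of a gene per 1000000 UMIs summed over the nuclei of a group, and are compared within a gene only, since counts of nuclear RNA also depend on gene length. Syt1, the main fast calcium sensor, gave 40245 UMIs, Rims1 gave 27109 and Snap25, the SNARE of the plasma membrane, gave 25036. At the other end 8 genes had fewer than 25 UMIs and were not compared. These were Syt15, Vamp3, Vamp5, Vamp8, Stx11 and Cplx3, with 21, 13, 9, 5, 3 and 1 UMIs, and Syt8 and Cplx4, with none in 36225553 UMIs, where 3 UMIs would be 0.0828 CPM. Cplx3 and Cplx4 are known from the retina. The remaining 64 genes had at least 20 UMIs expected in the smaller group of each 2-group comparison.

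Of the 64 genes compared between hashtags, 6 differed by at least 1.5-fold, beside 11.3% of all genes compared the same way. The share among the release genes was 9.38%, below that of all genes. The 4 genes higher in PVH-hashtag nuclei were Unc13c, Stxbp6, Syt7 and Syt10, where 5.82% of all genes were higher, and the 2 genes lower were Sv2c and Stxbp2, where 5.44% were lower. The median log2 ratio was -0.01 over the 64 genes and -0.04 over all genes. With the stricter tag threshold of 0.99, which left 1229 ARC-hashtag and 407 PVH-hashtag nuclei, 12 of 64 release genes passed, beside 9.16% of all genes, and with each nucleus given to its larger tag 5 of 64 passed, beside 8.31%.

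Unc13c encodes Munc13-3, a priming factor best known from cerebellar granule cells. It stood at 91.6 CPM in ARC-hashtag and 179 CPM in PVH-hashtag nuclei, a log2 ratio of 0.97 (95% counting interval 0.88 to 1.05). Stxbp6, or amisyn, binds syntaxin and SNAP-25 in a complex that lacks VAMP, and it went from 37.8 to 72.2 CPM, a log2 ratio of 0.94 (0.80 to 1.07). Both ratios rested in part on 1 cluster. Without cluster 16 the log2 ratio of Unc13c was 0.53, and without cluster 19 that of Stxbp6 was 0.56, both under the 1.5-fold threshold.

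Syt7, the slow high-affinity sensor of asynchronous release, was at 36.1 CPM in ARC-hashtag and 58.8 CPM in PVH-hashtag nuclei, a log2 ratio of 0.70 (0.56 to 0.84). Its relative Syt10 was at 19.8 and 32.1 CPM, a log2 ratio of 0.70 (0.51 to 0.89), which was 0.54 without cluster 1. Sv2c, a vesicle glycoprotein of the SV2 family, showed the opposite and widest difference, with 96.4 CPM under the ARC hashtag and 32.9 CPM under the PVH hashtag, a log2 ratio of -1.55 (-1.69 to -1.41). Leaving out any 1 cluster kept Sv2c between -1.73 and -1.27 and Syt7 between 0.61 and 0.81. Stxbp2, or Munc18-2, a syntaxin-binding protein of non-neuronal secretion, was a sparse gene at 11.9 and 7.71 CPM, with a log2 ratio of -0.62 (-0.94 to -0.30) that was -0.44 without cluster 6. When every nucleus was thinned to 1000 UMIs, 8.87% of ARC-hashtag and 2.86% of PVH-hashtag nuclei held an Sv2c UMI, and 29.9% and 12.9% did at full depth. The thinning left out 1 nucleus.

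Of the 21 genes listed for fast release, 2 passed 1.5-fold between hashtags, namely Sv2c and Unc13c, beside 11.3% of all genes. The other 19 had log2 ratios from -0.42 (Syt2) to 0.37 (Sv2b). Snap25 was at 696 and 685 CPM and Rims1 at 730.1 and 769.6 CPM. Their log2 ratios were -0.02 (-0.06 to 0.01) and 0.08 (0.04 to 0.11). The SNAREs Stx1a, Vamp1 and Vamp2 had log2 ratios of 0.08, -0.02 and 0.04, each with an interval that held 0. Syt1 was 1015 against 1222 CPM, a log2 ratio of 0.27 (0.24 to 0.30), and was 0.08 when the AGRP-like cluster was left out.

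**Figure D1:**
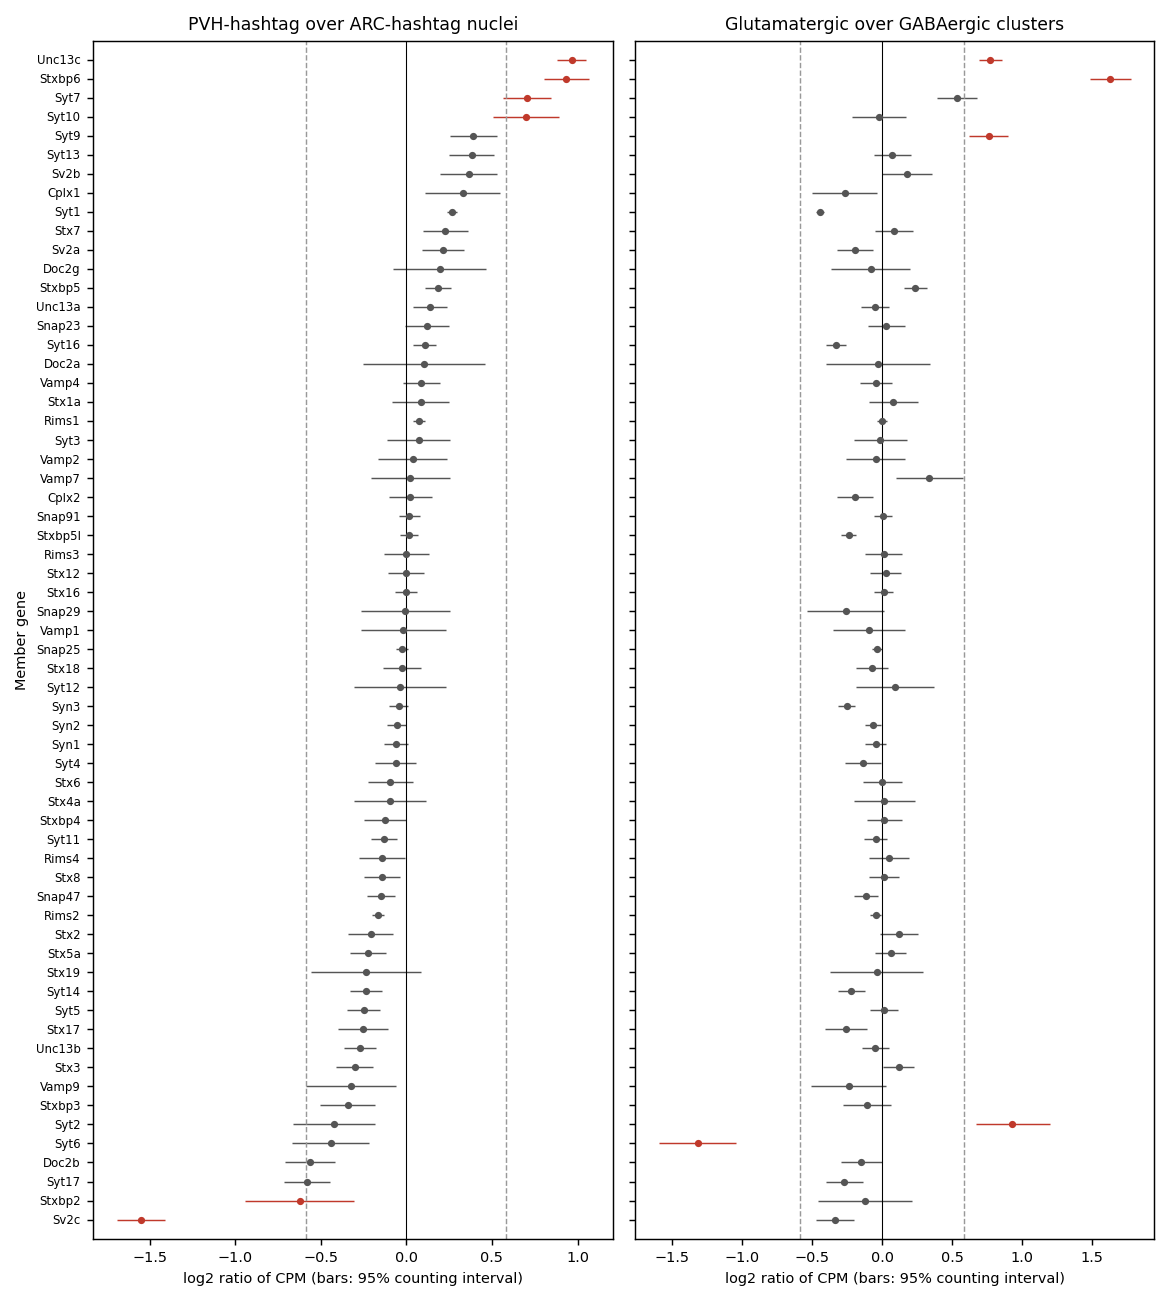
Log2 ratio of CPM for 62 of the 64 member genes compared, PVH-hashtag over ARC-hashtag nuclei on the left and glutamatergic over GABAergic neuron clusters on the right, with 95% counting intervals as bars and genes past the dashed 1.5-fold lines in red. Unc13c and Stxbp6 lie past the line in both panels, Sv2c has the lowest ratio on the left, and most genes sit close to 0.

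The 2 genes with large and opposite hashtag ratios were Unc13c (chr9:73479422-73968966, minus strand) and Sv2c (chr13:95954594-96132577, minus strand, GRCm38). They are shown by the 250 bases before their RefSeq starts, which lie outside the annotated genes. Bases just after the RefSeq start were found in the annotated transcripts of Sv2c but not in those of Unc13c. The windows are chr9:73969038-73969287 for Unc13c and chr13:96132578-96132827 for Sv2c, both on the minus strand of GRCm38.p6, and the capitals mark GC boxes (GGGCGG on either strand, here read as CCGCCC).
Unc13c: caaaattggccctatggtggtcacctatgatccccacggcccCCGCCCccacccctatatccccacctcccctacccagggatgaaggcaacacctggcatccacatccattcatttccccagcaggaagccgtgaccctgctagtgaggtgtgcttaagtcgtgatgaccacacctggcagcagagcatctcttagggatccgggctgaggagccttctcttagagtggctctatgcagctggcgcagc
Sv2c: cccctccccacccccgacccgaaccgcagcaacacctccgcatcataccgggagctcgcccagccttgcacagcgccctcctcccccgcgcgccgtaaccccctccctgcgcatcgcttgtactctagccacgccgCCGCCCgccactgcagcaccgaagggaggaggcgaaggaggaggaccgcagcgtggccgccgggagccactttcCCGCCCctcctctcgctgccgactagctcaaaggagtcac
Unc13c held 1 GC box in a window of 58.8% G and C, and Sv2c held 2 in a window of 70.8%. A GC box was in 32.7% of the 32817 RefSeq windows of this length. Of the 54 release genes that RefSeq lists, 37 held one in any of their windows. That count is per gene, and a gene can have several windows, so it is not comparable with the share per window. Neither window held a TATA box (TATAAA, 12.4% of windows), a cAMP response element (TGACGTCA, 1.55%), a POU octamer (ATGCAAAT, 1.60%) or a homeodomain core (TAATTA, 4.85%). A match is a description of letters and not a measured site.

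In the data, 4 clusters held at least 50 nuclei of each hashtag, so that the hashtags could be set side by side inside a cluster. These were cluster 3 (GABAergic, 271 ARC-hashtag and 445 PVH-hashtag nuclei), the dopaminergic-like cluster 4 (322 and 185), cluster 5 (Sim1 PVH-like on 3 markers, 118 and 329) and the VMH-like cluster 11 (193 and 68). At 1.5-fold, 6 of 58 release genes differed in cluster 3, 9 of 48 in cluster 4, 5 of 44 in cluster 5 and 1 of 33 in cluster 11, beside 7.46%, 10.6%, 10.1% and 7.37% of all genes.

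Unc13c went in opposite directions inside these clusters. In cluster 3 it was 297 CPM in ARC-hashtag and 100.3 CPM in PVH-hashtag nuclei, a log2 ratio of -1.56 (-1.80 to -1.33). In cluster 5 it was 129 CPM in ARC-hashtag and 517 CPM in PVH-hashtag nuclei, a log2 ratio of 2.00 (1.66 to 2.36). In cluster 4, which is GABAergic, it was 53.6 CPM in ARC-hashtag and 95.1 CPM in PVH-hashtag nuclei, a log2 ratio of 0.83 (0.37 to 1.28). In cluster 11 the log2 ratio was 1.00 (0.12 to 1.86), from fewer UMIs than the comparison required. Over all glutamatergic clusters its log2 ratio was 2.60, and over all GABAergic clusters it was -0.77, so the pooled ratio joined 2 opposite ones. Of the 1977 Unc13c UMIs in GABAergic clusters, 829 came from cluster 12, where 2.39% of nuclei had the PVH hashtag. The GABAergic ratio without cluster 12 was not computed. Cluster 4 did not share the sign of the GABAergic clusters as a whole. Sv2c was 70.7 CPM in ARC-hashtag and 28.0 CPM in PVH-hashtag nuclei in cluster 3, a log2 ratio of -1.34 (-1.82 to -0.86). In cluster 4 it was 111 CPM in ARC-hashtag and 35.2 CPM in PVH-hashtag nuclei, a log2 ratio of -1.66 (-2.26 to -1.09). In cluster 5 it was 26.2 CPM in ARC-hashtag and 23.6 CPM in PVH-hashtag nuclei. In cluster 11 it was 19.4 CPM in ARC-hashtag and 15.4 CPM in PVH-hashtag nuclei. Log2 ratios in clusters 5 and 11 were -0.15 (-1.03 to 0.80) and -0.34 (-1.94 to 1.02), from fewer UMIs than the comparison required. Syt10 was 19.3 CPM in ARC-hashtag and 58.7 CPM in PVH-hashtag nuclei in the dopaminergic-like cluster, a log2 ratio of 1.61 (0.94 to 2.29), and showed no such difference in cluster 3, at 0.05 (-0.51 to 0.63). Syt7 was 33.2 CPM in ARC-hashtag and 57.0 CPM in PVH-hashtag nuclei in cluster 5, a log2 ratio of 0.78 (0.06 to 1.57), but 51.7 CPM under both hashtags in cluster 3, with log2 ratios of 0.25 (-0.53 to 1.00) and -0.22 (-0.90 to 0.42) in clusters 4 and 11. Sv2a, a widely used SV2 protein, had log2 ratios above 0 in all 4 clusters, at 0.71 (0.28 to 1.15), 0.84 (0.38 to 1.30), 0.26 (-0.34 to 0.91) and 0.49 (-0.17 to 1.13) in clusters 3, 4, 5 and 11, the last 2 with intervals that held 0, against 0.21 (0.09 to 0.34) over all nuclei. It was singled out after its values were seen. The mean of the 4 within-cluster log2 ratios was 0.58 for Sv2a, 0.57 for Unc13c, 0.47 for Stxbp6, 0.40 for Syt10, 0.20 for Syt7, 0.18 for Stxbp2 and -0.87 for Sv2c. On that measure Sv2c was the 1 release gene past 1.5-fold, with Sv2a and Unc13c just under it. The value of Stxbp2 came from 2 to 20 UMIs per cluster and hashtag. The means of Sv2c, Unc13c, Stxbp6 and Syt10 also include clusters with fewer UMIs than the comparison required. A cluster can itself hold several kinds of neuron in different shares under the hashtags, and the part of this in the within-cluster ratios was not tested.

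**Figure D2:**
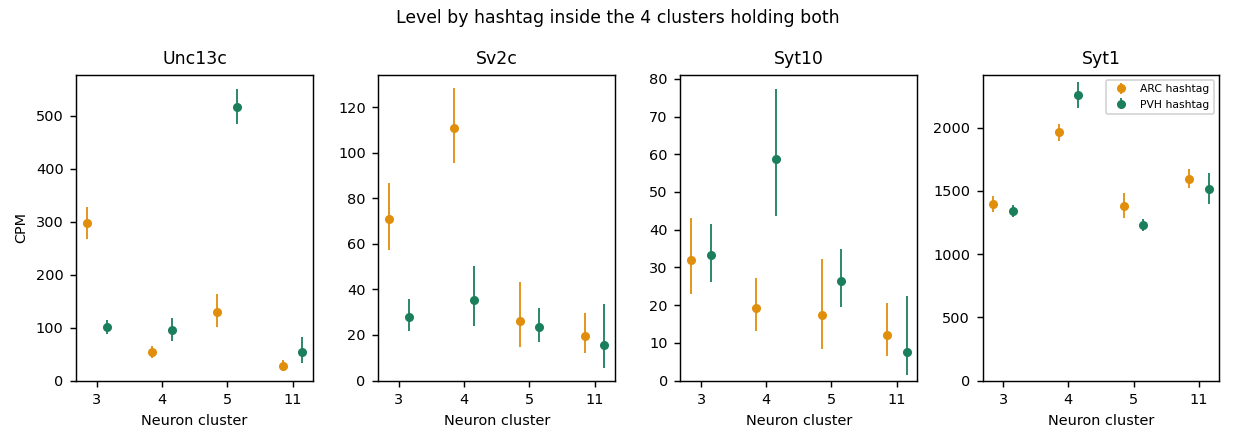
CPM of Unc13c, Sv2c, Syt10 and Syt1 by hashtag (orange ARC, green PVH) inside the 4 neuron clusters that hold at least 50 nuclei of each, with 95% counting intervals as bars. Unc13c is higher under the ARC hashtag in cluster 3 and under the PVH hashtag in clusters 4 and 5. Sv2c is lower under the PVH hashtag in clusters 3 and 4, and Syt1 stays near the same level.

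Between transmitter types, 5 of 64 release genes differed by at least 1.5-fold over the summed clusters, beside 8.59% of all genes. Stxbp6, Syt2, Unc13c and Syt9 were higher in glutamatergic clusters and Syt6 was lower, where 4.63% and 3.96% of all genes were higher and lower. Stxbp6 was at 87.9 CPM in glutamatergic and 28.4 CPM in GABAergic clusters, a log2 ratio of 1.63 (1.48 to 1.78), which was 0.60 without clusters 18 and 19, the Avp- and Oxt-marker clusters described further on. The fast sensors Syt2 and Syt9 stood at 20.1 against 10.5 CPM and 65.1 against 38.5 CPM, log2 ratios of 0.93 (interval above 0.67) and 0.76 (0.62 to 0.90), the second of which was 0.58 without the AGRP-like cluster. Syt6 was at 9.54 against 23.8 CPM, a log2 ratio of -1.32 (-1.60 to -1.04). Unc13c was at 179.7 against 105 CPM, a log2 ratio of 0.77 (0.69 to 0.86).

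The types were also unevenly spread over the hashtags, with 62.5% of glutamatergic and 37.1% of GABAergic nuclei under the PVH hashtag. Among ARC-hashtag nuclei alone, clustered afresh, the log2 ratio of Unc13c was -2.05, and among PVH-hashtag nuclei alone it was 2.08, so the sign turned with the hashtag. With each cluster weighing the same it was -0.35, and without cluster 16 alone it was 0.23. Syt6 likewise had -1.82 among ARC-hashtag and 0.29 among PVH-hashtag nuclei. Syt2 and Stxbp6 kept the higher level in glutamatergic clusters under both hashtags, at 1.37 and 0.88 for Syt2 and at 0.29 and 1.67 for Stxbp6.

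Levels were also compared across the 21 neuron clusters. The spread of a gene was taken as the ratio of its second highest to its second lowest cluster, so that 1 cluster alone could not set it. A spread picks near-extreme clusters, so it tends to exceed a ratio of 2 pooled groups by design and is not set against one. Among the 45 release genes with enough UMIs in every cluster, 19 had a spread of at least 2-fold (42.2%), beside 25.1% of all 5545 genes. The median spread was 1.75-fold for the release genes and 1.61-fold for all genes. The 19 genes were 6 of 11 synaptotagmins and Doc2 proteins, 3 of 14 other SNAREs (counted with Snap91, a clathrin assembly protein that shares only the symbol), 2 of 5 syntaxin-binding proteins, 4 of 7 priming and active zone proteins, 1 of 1 complexin and 3 of 5 vesicle proteins. The release SNARE Snap25 was not among them. Without clusters 18 and 19 the count was 12 of 44, beside 21% of all genes. With the stricter tag threshold of 0.99 it was 6 of 37, beside 16.3%. With each nucleus thinned to 1000 UMIs, where few genes have enough UMIs left, it was 4 of 9, beside 45.5%.

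**Figure D3:**
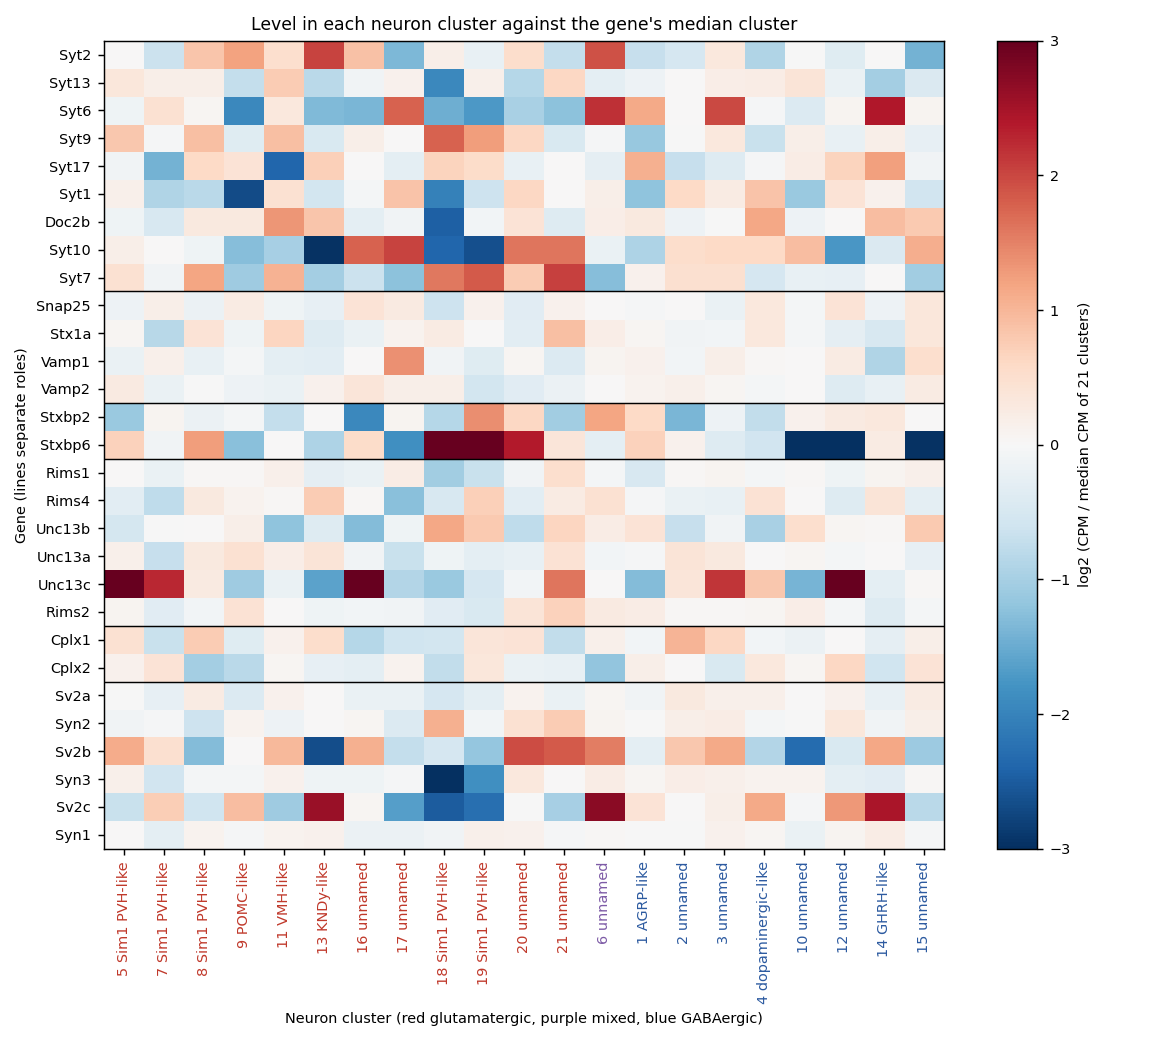
Log2 CPM of 29 named genes in each of 21 neuron clusters against the gene's own median cluster, by role, on a colour scale that ends at 3 in either direction, with cluster labels in red for glutamatergic, purple for mixed and blue for GABAergic. The rows of Snap25 and Syn1 are close to uniform, whereas Stxbp6, Unc13c, Sv2c, Syt1 and Syt10 change by large steps from cluster to cluster and Syn3 is low in clusters 18 and 19.

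Among the synaptotagmins Syt1 varied by 7.31-fold. Its lowest level was 179 CPM (95% counting interval 159 to 200.2) in the POMC-like cluster, its median over clusters 1141 CPM and its highest 2064 CPM (95% counting interval 2009 to 2121) in the dopaminergic-like cluster. Cluster 18 and the AGRP-like cluster were also low, at 280.4 and 495 CPM, and clusters 17, 20 and 2 were high, at 2049, 1743 and 1723 CPM. At 1000 UMIs per nucleus, 12.8% of POMC-like and 82.8% of dopaminergic-like nuclei held a Syt1 UMI (44.3% and 99.2% at full depth). The same share was 8.33% in the non-neuronal cluster with astrocyte and tanycyte markers (cluster 22) and 13.8% in that with oligodendrocyte-lineage markers (cluster 23), or 16.7% and 44.8% at full depth, where median depths were 5516 UMIs in the POMC-like cluster and 2501 and 4750 UMIs in these 2. At equal depth the interval of the POMC-like share (9.18 to 17.2%) overlapped those of clusters 22 and 23 (1.75 to 22.5% and 3.89 to 31.7%), which are wide because these clusters hold 36 and 29 nuclei. Cluster 23 also held Snap25 at 253 CPM. The POMC-like share was therefore not distinguishable from background, and any background is part of the Syt1 ratios given for that cluster. A predicted gene, Gm5136, overlaps Syt1 on the same strand in the annotation.

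Syt9, which serves as a fast sensor in some limbic and neuroendocrine cells, had a spread of 3.81-fold and was highest in clusters 18 and 19, at 149.8 CPM (95% counting interval 123 to 181) and 105 CPM, and lowest in the AGRP-like cluster, with a log2 ratio to the other neurons of -1.43 (-1.76 to -1.11). Syt2 was sparse, with a median of 13.3 CPM, and stood at 54.2 CPM in the KNDy-like cluster and, in cluster 6, the mixed one, at a log2 ratio to the other neurons of 1.76 (1.44 to 2.07). Syt7 had a spread of 8.44-fold around a median of 37.3 CPM, with 155 CPM (95% counting interval 125 to 189) in cluster 21, 133 CPM in cluster 19, 111 CPM in cluster 18 and 84.4 CPM in cluster 8, against 15.4 CPM in cluster 6. All 4 of the clusters named as high in Syt7 were glutamatergic. Syt10 ranged from 1.84 CPM in the KNDy-like cluster, under the 2.75 CPM that 3 UMIs give there, to 87.9 CPM in cluster 17.

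Syt17, Syt13 and Doc2b varied by 5.54-, 3.13- and 3.09-fold. Syt17, which does not bind calcium, was highest in the GHRH-like and AGRP-like clusters, at 115 and 103 CPM, and lowest in the VMH-like cluster, at 9.52 CPM (95% counting interval 5.21 to 16.0). Doc2b, a high-affinity sensor studied in spontaneous release, was highest in that same VMH-like cluster, at 94.5 CPM, and lowest in cluster 18, at 6.87 CPM from 5 UMIs. Syt13 was highest in the VMH-like cluster as well, at 89.1 CPM, and lowest in cluster 18, at 13.7 CPM. Syt6 stood at 60.4 CPM in the GHRH-like cluster, 52.0 CPM in cluster 6 and 45.4 CPM in cluster 3, against a median of 11.4 CPM. Syt4, Syt5, Syt11, Syt14 and Syt16 had spreads of 1.73-, 1.74-, 1.44-, 1.61- and 1.92-fold, all under the threshold.

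Of the SNAREs of release Snap25 lay at 447 to 906 CPM over the 21 clusters (spread 1.67-fold), with its lowest level in cluster 18. Stx1a, Vamp1 and Vamp2 had too few UMIs in the small clusters for the rule and lay at 17.6 to 58.0 CPM, 8.00 to 38.7 CPM and 15.0 to 28.1 CPM. Of the SNAREs of other membranes, Stx2 (highest in cluster 19, at 94.4 CPM), Stx3 (highest in the GHRH-like cluster, at 139.6 CPM) and Stx17 (highest in cluster 17, at 80.9 CPM) passed 2-fold, with spreads of 2.41-, 2.35- and 2.46-fold. Stx17 acts in the fusion of autophagosomes with lysosomes. These 3 were named after their values were seen. The other 11 tested in that group had spreads from 1.32- to 1.75-fold.

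Among syntaxin-binding proteins Stxbp6 varied by 141-fold, the widest spread among the 45 release genes, although the second lowest cluster rested on 4 UMIs. Stxbp6 had a median of 31.3 CPM and reached 479.7 CPM (95% counting interval 431 to 533) in cluster 18, 453 CPM (95% counting interval 409.7 to 500.5) in cluster 19 and 162 CPM in cluster 20. It was at 1.57, 3.21 and 4.00 CPM in the GABAergic clusters 10, 12 and 15, from 2, 4 and 4 UMIs. At 1000 UMIs per nucleus 29.2% of cluster 18 and 29.9% of cluster 19 held an Stxbp6 UMI (88.0% of cluster 19 at full depth), and the share was 20.7% (37.9% at full depth) in the oligodendrocyte-lineage cluster, where the level was 165 CPM. The 7 oligodendrocyte markers summed to 11590 CPM there and to 66.0 and 49.5 CPM in clusters 18 and 19, within the range of 45.4 to 227 CPM over all neuron clusters, with 1 and 0 of the 7 at 0. Stxbp5 (tomosyn), an inhibitor of SNARE assembly, was highest in cluster 18, at 305 CPM, and had a spread of 2.39-fold.

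The priming factors differed most through Unc13c, with a spread of 44.7-fold. Its lowest level was 12.9 CPM in the KNDy-like cluster, its median 39.0 CPM, and its highest levels were 872 CPM (95% counting interval 818 to 928) in cluster 16, 665 CPM (95% counting interval 620.5 to 712) in cluster 12 and 425 CPM (95% counting interval 399 to 452) in cluster 5. Cluster 12 is GABAergic and almost all ARC-hashtag, while clusters 16 and 5 are glutamatergic and mostly PVH-hashtag, so high Unc13c was found on both sides of each division. At 1000 UMIs per nucleus 53.7%, 43.0% and 27.7% of nuclei in clusters 16, 12 and 5 held an Unc13c UMI (96.3%, 72.1% and 54.8% at full depth). In the non-neuronal clusters 22 and 23 the shares were 2.78% and 0%, the latter from 0 of 29 nuclei, which allows up to 11.9%. They were 2.78% and 6.90% at full depth. Unc13b (Munc13-2) varied by 3.99-fold and was highest in clusters 18 and 15, at 232 and 179 CPM. Unc13a (Munc13-1) varied by 2.18-fold, at 56.2 to 124 CPM. Of the RIM genes Rims1 and Rims2 had spreads of 1.87- and 1.75-fold, with Rims1 lowest in cluster 18, at 379 CPM, and both highest in cluster 21, at 1114 and 1139 CPM. Rims4 varied by 2.80-fold.

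Cplx2 had a spread of 2.69-fold, from 27.4 CPM in cluster 6 to 95.5 CPM in cluster 12, and Cplx1 was sparser, at 8.80 to 32.7 CPM. Of the synapsins Syn1 was even, at 142 to 204 CPM. Syn3 lay at 182 to 337 CPM in 19 clusters, and was at 9.62 CPM (95% counting interval 3.87 to 19.8), from 7 UMIs, in cluster 18 and at 74.8 CPM (95% counting interval 57.7 to 95.3) in cluster 19. The same cluster 18 had the highest Syn2 level, 614 CPM (95% counting interval 559 to 674), against a median of 294 CPM, while Syn2 in cluster 19 was 276 CPM. Timp3, 4930486F22Rik and Gm15990 lie on the other strand within or across Syn3, and Timp4 and Gm17482 overlap Syn2.

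Sv2c had a spread of 28.7-fold. It was highest in cluster 6, the KNDy-like and the GHRH-like cluster, at 254 CPM (95% counting interval 233 to 277), 231 and 212 CPM, in which 2.57%, 2.75% and 1.42% of nuclei had the PVH hashtag, and lowest in clusters 18 and 19, at 6.87 and 8.06 CPM from 5 and 7 UMIs. Its median was 38.7 CPM. Sv2a was even, at 41.2 to 72.4 CPM. Sv2b had too few UMIs for the rule and ranged from 3.67 CPM in the KNDy-like cluster, from 4 UMIs, to 90.6 CPM in cluster 20.

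**Figure D4:**
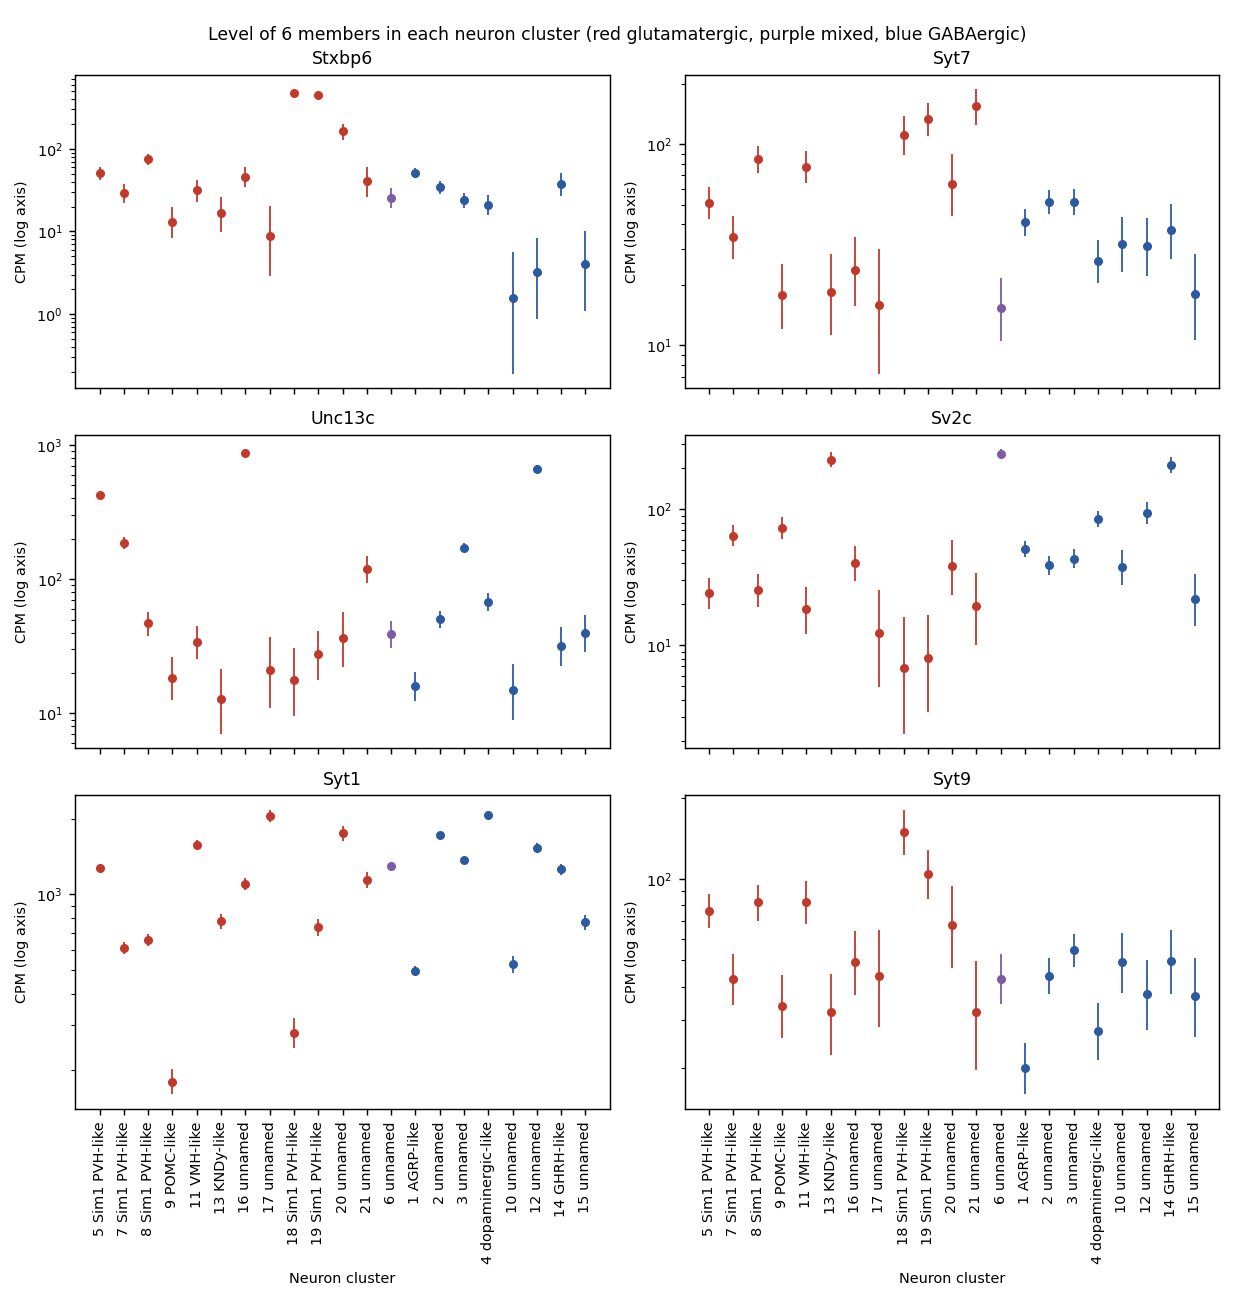
CPM of Stxbp6, Syt7, Unc13c, Sv2c, Syt1 and Syt9 on a log axis in each of the 21 neuron clusters, with 95% counting intervals as bars, in red for glutamatergic, purple for mixed and blue for GABAergic clusters. Stxbp6 and Syt9 peak in clusters 18 and 19, Unc13c in clusters 16, 12 and 5, Sv2c in clusters 6, 13 and 14, and Syt1 is lowest in the POMC-like cluster 9.

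Against all other neurons, 21 of 64 release genes were past 2-fold in at least 1 of the 11 named clusters, beside 19.9% of all genes. These shares are not fully comparable, since release genes had enough UMIs in more clusters. In cluster 18, 48 of the 64 release genes had enough, beside 6909 of the 12591 genes. Among named clusters, release genes past 2-fold were most numerous in the 2 Sim1 PVH-like clusters in which a magnocellular hormone gene passed as marker. The gene was Avp in cluster 18 (120 nuclei) and Oxt in cluster 19 (117 nuclei). In cluster 18, 14 of 48 release genes passed, beside 10.7% of all genes, and in cluster 19, 9 of 50, beside 10.1%. Stxbp6 (log2 3.43 (3.26 to 3.60) and 3.39 (3.23 to 3.55)), Syt7 (1.29 and 1.58) and Syt9 (1.65 and 1.11) were higher in both. Sv2c (-3.32 and -3.10), Unc13c (-2.92 and -2.29), Syn3 (-4.81 and -1.85) and Sv2b (-1.01 and -1.70) were lower in both. Unc13b (log2 1.22), Stxbp5 (1.07) and Syn2 (1.02) were past 2-fold higher in cluster 18 and stood at 0.83, 0.02 and -0.16 in cluster 19. Syt1 was lower in cluster 18 by more than 2-fold (log2 -2.02 (-2.22 to -1.82)) and less so in cluster 19 (-0.61 (-0.72 to -0.50)). Median depth was 5675 UMIs in cluster 18 and 7088 in cluster 19, the highest of any neuron cluster.

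Syt1 and Unc13c were more than 2-fold lower in both arcuate clusters of feeding neurons, but neither was particular to them. Unc13c was also past 2-fold lower in the KNDy-, GHRH-, VMH- and dopaminergic-like clusters, among others. Syt1 was so in clusters 10 and 18. In the AGRP-like cluster, the hunger-promoting neurons of the arcuate nucleus (764 nuclei), 6 of 64 release genes passed 2-fold, beside 7.3% of all genes (1.95% higher and 5.35% lower). Syt17 was higher (log2 1.06 (0.91 to 1.22)), and Syt1 (-1.27), Syt9 (-1.43), Syt10 (-1.27), Syt2 (-1.13) and Unc13c (-3.21) were lower. In the POMC-like cluster, the satiety-promoting neurons (289 nuclei), 6 of 61 passed, beside 5.04%, and all 6 were lower, where 3.81% of all genes were. These were Syt1 (log2 -2.70 (-2.87 to -2.54)), Syt6, Syt7, Syt10, Unc13c and Stxbp6. Snap25 in these 2 clusters was 662 and 805 CPM, near its median of 684 CPM.

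Of the other named clusters, the KNDy-like cluster (kisspeptin, neurokinin B and dynorphin neurons of reproduction, 218 nuclei) had 7 of 54 release genes past 2-fold, beside 8.04% of all genes (2.15% higher and 5.89% lower), with Sv2c higher (log2 1.89 (1.70 to 2.08)) and Syt6, Syt7, Syt10, Sv2b, Unc13c and Stxbp6 lower. The GHRH-like cluster (211 nuclei), whose markers Ghrh, Chat and Gal passed, had 5 of 54, beside 6.63% (1.9% higher and 4.73% lower), with Sv2c (log2 1.76), Syt6 (1.74) and Syt17 (1.10) higher and Unc13c and Syt13 lower. The VMH-like cluster had 6 of 59, beside 4.33% (1.33% higher and 3% lower), with Doc2b higher (log2 1.11 (0.85 to 1.36)) and Syt17, Sv2c, Unc13c, Syt10 and Unc13b lower. The dopaminergic-like cluster had 5 of 63, beside 4.79%, all 5 lower where 3.72% of all genes were, namely Sv2b, Stxbp6, Syt2, Syt12 and Unc13c. The other Sim1 PVH-like clusters, 5, 7 and 8, had 3 of 63, 2 of 61 and 3 of 62, beside 1.51%, 6.08% and 4.35%, with Unc13c higher in cluster 5 (log2 1.92) and lower in cluster 8 (-1.56).

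The paralogs of a family took different shares of its UMIs from cluster to cluster. Such a share depends on gene length, so only its change between clusters is read here. Of the UMIs of the fast sensors Syt1, Syt2 and Syt9, Syt9 made up 33.6% (95% interval 28.5 to 39.1) in cluster 18 and 1.31% (95% interval 1.02 to 1.65) in the dopaminergic-like cluster. Of the Unc13 UMIs, Unc13c made up 87.4% (95% interval 85.3 to 89.3) in cluster 16 and 5.37% (95% interval 2.89 to 9.01) in cluster 18. Of the SV2 UMIs, Sv2c made up 78.8% (95% interval 73.9 to 83.1) in the KNDy-like cluster and 10.6% (95% interval 3.55 to 23.1) in cluster 18. Syn3 made up 1.22% (95% interval 0.493 to 2.51) of the synapsin UMIs in cluster 18, with a median over clusters of 35.9%. The share of Rims1 among Rims1 and Rims2 moved less, from 40.5% to 60.6%.

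**Figure D5:**
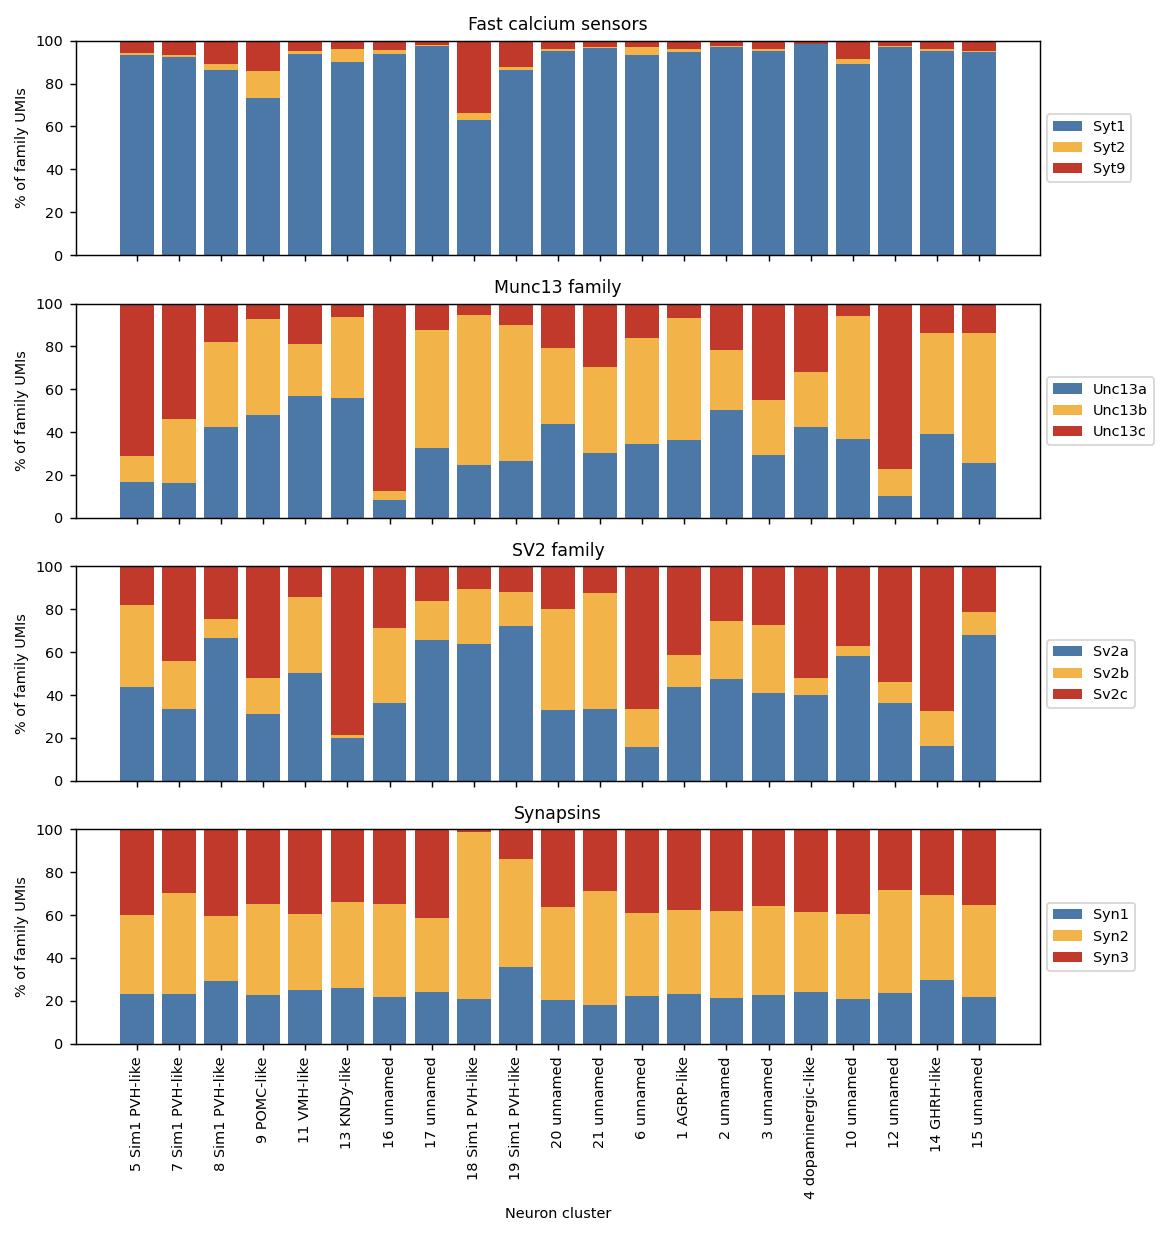
Percent of the UMIs of 4 families that each paralog gave in each of the 21 neuron clusters (stacked bars that sum to 100%), for the fast calcium sensors Syt1, Syt2 and Syt9, the Munc13 family, the SV2 family and the synapsins. Syt9 takes its highest share in cluster 18, Unc13c in cluster 16, Sv2c in the KNDy-like cluster 13, and Syn3 falls to 1.22% in cluster 18.

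As a description of which genes varied alike, CPM was correlated over the 21 neuron clusters among the 12 genes with the widest spread. The clusters share 1 library, differ in size and are not independent samples, so no test was made. By Spearman's rho the closest pair was Stxbp6 and Syt7, at 0.72 (Pearson's r 0.68), and Syt1 and Unc13b were the most opposed, at -0.64 (r -0.58). By Pearson's r the order differed, with Syn3 and Doc2b closest at 0.73 (rho 0.23) and Syn3 and Syt9 most opposed at -0.61 (rho -0.07). Syt7 and Syt9 had a rho of 0.54 and Sv2c and Syt9 a rho of -0.57.

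Beyond the members, 40 genes of the wider release pathway were read the same way, among them scaffolds of the active zone, Rab3 and its partners, and endocytic proteins. Between hashtags 0 of the 40 passed 1.5-fold, beside 11.3% of all genes. Between transmitter types 1 of 40 passed, beside 8.59%, Nrxn3, a presynaptic adhesion protein, with a log2 ratio of -1.60. Across clusters 13 of 37 passed 2-fold, beside 25.1%, led by Cadps2, a priming factor of dense-core vesicles (10.4-fold), Nrxn3 (9.92-fold), the vesicle protein Synpr (8.35-fold) and Rab3b (6.02-fold).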

How the data were processed

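Single-nucleus RNA sequencing was read from 1 pooled gene expression library and its hashtag library, both of wild-type male mouse ARC labelled samples. The authors deposited unnormalized counts, 1 UMI count for each gene in each barcode (Cell Ranger 5.0 in the submitters' processing notes, 4.0.0 in the matrix header, build mm10). Whether intronic reads were counted is not given in these sources. Clusters and class names were rebuilt, since no annotation of nuclei was used.

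Nuclei were kept between 800 and 5000 genes, with up to 12000 UMIs of which 1% or less were mitochondrial, and hashtags were called at a positive quantile of 0.8, which removed 944 doublets and left 2385 nuclei unassigned. No other doublet caller was run. Clusters came from 2000 variable genes without the members, 30 components, 20 neighbours and a Leiden resolution of 0.55 (R 4.3.3, Seurat 5.3.0, leidenbase 0.1.32; the authors used Seurat 4). A cluster took a class name where the first and no fewer than 3 of that list's markers stood at 1.5-fold over other neurons, each on 3 UMIs or more, and it fitted 1 class only. Non-neuronal clusters had a median neuronal marker fold under 0.5. Clusters were glutamatergic or GABAergic where Slc17a6 or Slc32a1 exceeded the other by 1.5-fold.

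CPM of summed UMIs have exact Poisson intervals, shares exact binomial intervals and ratios exact binomial intervals conditional on the summed count, all at 95% (Python 3.11.15, numpy 2.4.6, scipy 1.17.1, pandas 2.3.3, matplotlib 3.10.9). PCR copies are collapsed by UMI, and intervals do not cover differences between animals. Genes needed at least 20 UMIs expected in the smaller group. With 1 library no test was made. The steps were tested on simulated data. Gene positions are those of GENCODE M21 (GRCm38), in which all 72 members were found, and 27 of them overlap another counted gene, which matters because the counting was not checked for strand. Promoter windows are from RefSeq (GRCm38.p6), which lists 54 of the 72.

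Named genes were the members past 1.5-fold in a 2-group comparison, the 12 with the widest spread and 21 genes of fast release. Any other gene was named after its value was seen. Members, marker lists and pathway lists were chosen with earlier results of these data known. Values of 2 members are not reported here. No per-sample column was left unused (0).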

Additional observations from a re-analysis of the deposited data

How the results depend on the processing

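Alternatives were tried for the filters, the hashtag call, the clustering, the fold, the least number of UMIs and the weighting of nuclei. With the lower fold thresholds the counts of members were 16 of 64 between hashtags, beside 24.4% of all genes, and 34 of 45 across clusters, beside 64%. They were 10 between transmitter types and 38 in named classes. With folds of 2 and 3 they were 1 of 64 between hashtags, beside 4.3%, and 11 of 45 across clusters, beside 14.3%. They were then 2 between types and 13 in named classes. For types and named classes the share of all genes was not computed under the alternatives. A hashtag quantile of 0.99 gave 12 of 64 between hashtags, beside 9.16% of all genes. Across clusters it gave 6 of 37, beside 16.3%, so release genes did not stand above all genes there. GABAergic clusters alone gave 10 of 64 between hashtags, beside 12.2%, and the mean over clusters with both hashtags gave 1 of 64, beside 6.61%. Across clusters the count was 33 of 62 with at least 5 UMIs expected, beside 42% of all genes, and 6 of 19 with at least 50, beside 28.6%. It was 4 of 9 after thinning to 1000 UMIs, beside 45.5%, and 12 of 44 without clusters 18 and 19, beside 21%. Leaving out clusters 18 and 19 was chosen after the data were seen. In these alternatives the number of genes with enough UMIs changed as well. In named classes the count was 12 after thinning and 13 with ARC-hashtag nuclei alone. The other 59 of 77 alternative counts stayed within 1.5 times.

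Signs turned for Unc13c between transmitter types with the 0.99 quantile (-0.0015), ARC-hashtag nuclei alone (-2.05) and the median over clusters (-0.35), and between hashtags in GABAergic clusters (-0.77). They turned for Syt6 between types with PVH-hashtag nuclei alone (0.29) and after thinning (0.10). They also turned for Stxbp2 between hashtags in glutamatergic clusters (0.00174) and in the mean over clusters with both hashtags (0.18). After thinning, the transmitter types and class names of the clusters were called again from the thinned counts. The cause of these turns was not tested. Depth limits genes under about 20 UMIs per group, for which a difference was not detectable. No paired analysis was possible because the 2 samples are the gene expression and hashtag libraries of the same nuclei and no groups share replicate numbers.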

Other observations

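Nuclei that carried no clear hashtag or both hashtags were in no comparison. Among the 2385 nuclei without a call, Sv2c stood at 49.0 CPM (95% counting interval 44.6 to 53.8) and Unc13c at 145.7 CPM (138 to 154). Among the 944 nuclei called as doublets, Sv2c stood at 60.8 CPM (54.3 to 67.9) and Unc13c at 122 CPM (112 to 131). In both sets each gene lay between its levels in ARC-hashtag and PVH-hashtag nuclei. Syt1 was at 1238 CPM (1215 to 1261) without a call and 1060 CPM (1032 to 1088) in doublets.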
